A study of Mus musculus with 2 samples.

Results

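The proteasome genes of colonic Treg cells, the suppressive CD4 T cells marked by the factor Foxp3, are described here in 2 RNA-seq libraries. The members were found by name: protein-coding rows whose symbol begins with Psm, a letter from a to g and a digit. This gave 50 of the 22046 protein-coding genes, or of 55246 rows in all, and 49 of the 50 had at least 10 reads over both libraries. The rule itself uses names only. One member, Psmc3ip, matches by name only and encodes a recombination factor, so 49 members are subunits, activators, inhibitors or assembly factors of the proteasome.

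Both libraries were made from Treg cells of female mice, taken from the lamina propria of the colon (the tissue just beneath the epithelial lining). One genotype is wild type (WT) and the other, Exon2KO, carries a Foxp3 allele without exon 2. There was 1 library per genotype. The mice's age, the number of mice per library, any pooling and the sorting scheme are not given in the labels. With no replicate, the spread between mice is unknown and no p-value for a difference is given other than those in the authors' deposited table. Intervals are 95% intervals for counting error only and treat reads as independent. Copies made by PCR were not marked and reads are not independent molecules, so the intervals may be too narrow even for that error.

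The proteasome is the barrel-shaped protease that degrades ubiquitin-tagged proteins. Its core particle stacks rings of alpha and beta subunits, and 3 of the beta subunits cut peptide bonds: Psmb6 (caspase-like), Psmb7 (trypsin-like) and Psmb5 (chymotrypsin-like). In lymphocytes and after interferon exposure these can be replaced during assembly by Psmb9, Psmb10 and Psmb8, which make the immunoproteasome and alter the peptides offered to MHC class I. The regulatory particle, built from Psmc and Psmd subunits, recognises, unfolds and feeds in substrates, while the PA28 cap (Psme1 and Psme2) opens the core without ATP.

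Sequence around the start is shown for the catalytic and PA28 genes other than Psmb7, because the results turn on the contrast between the standard and the inducible members. Sequences are RefSeq promoter windows on GRCm38.p6, which run from 250 bases before to 50 bases after a gene's start, and 42 members had one. Capitals mark matches, on either strand, to 4 motifs: the core of the interferon-stimulated response element (GAAANNGAA), the gamma-activated site (TTCNNNGAA), the antioxidant response element (TGACNNNGC, which NRF factors bind) and the GC box (GGGCGG). The motifs can overlap one another, and a match is a description of letters, not a binding site. For Psmb8, Psmb9 and Psme1, 30 bases around 1 match are shown, and for the others a stretch of the window outside any annotated exon. RefSeq starts can differ from the deposited gene limits, and the stretches of Psmb8, Psmb9 and Psme1 lie inside the gene spans given with their values.
Psmb8, chr17:34198087-34198116, plus strand, gamma-activated site: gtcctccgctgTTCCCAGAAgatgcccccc
Psmb9, chr17:34187368-34187397, minus strand, GC box: tgcgcgatgatgGGGCGGggcctcagtctg
Psme1, chr14:55578493-55578522, plus strand, interferon element core on the other strand: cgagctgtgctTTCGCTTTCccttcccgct
Psmb10, chr8:105938445-105938642, minus strand, no match: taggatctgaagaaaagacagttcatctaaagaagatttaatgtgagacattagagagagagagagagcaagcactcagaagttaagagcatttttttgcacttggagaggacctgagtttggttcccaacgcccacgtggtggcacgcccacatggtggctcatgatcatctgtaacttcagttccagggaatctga
Psme2, chr14:55591114-55591351, minus strand, GC box on the other strand: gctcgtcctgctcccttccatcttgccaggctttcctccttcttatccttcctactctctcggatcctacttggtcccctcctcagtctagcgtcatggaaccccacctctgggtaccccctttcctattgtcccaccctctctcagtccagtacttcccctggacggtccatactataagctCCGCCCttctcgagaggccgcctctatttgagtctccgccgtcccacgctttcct
Psmb5, chr14:54618023-54618245, minus strand, antioxidant element: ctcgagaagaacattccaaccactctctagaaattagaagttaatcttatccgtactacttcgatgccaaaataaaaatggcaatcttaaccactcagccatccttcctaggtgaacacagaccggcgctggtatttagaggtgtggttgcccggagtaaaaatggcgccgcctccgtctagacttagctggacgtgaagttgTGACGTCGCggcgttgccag
Psmb6, chr11:70525107-70525356, plus strand, GC box on the other strand and antioxidant element: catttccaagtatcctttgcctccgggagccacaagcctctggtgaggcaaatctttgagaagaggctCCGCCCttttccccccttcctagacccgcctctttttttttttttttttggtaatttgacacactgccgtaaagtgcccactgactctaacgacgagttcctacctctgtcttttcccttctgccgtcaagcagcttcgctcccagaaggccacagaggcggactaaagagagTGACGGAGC

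Over whole windows, the antioxidant element letters stood in 6 of the 42 members (14.3%, against 12.4% of 32851 windows in the table), among them the standard catalytic genes Psmb5 and Psmb6. The gamma-activated site letters were found for 3 members (7.14%, against 8.3%), of which Psmb8 is one. The interferon element core was in 7 members (16.7%, against 8.56%); Psme1 was the only one of the catalytic and PA28 genes among them. A GC box was present in 23 members (54.8%, against 35.7%).

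Gene-assigned reads numbered 16281133 for WT and 15412425 for Exon2KO. The 49 members that reached 10 reads made up 0.859% of these in WT and 0.886% in Exon2KO. Foxp3 itself had 6991 WT and 20946 Exon2KO reads, and a count over the whole gene does not test for a missing exon. In the authors' deposited table, 1029 of 22447 genes have an adjusted p-value below 0.05, and 1 of the 50 members (Psmb11, at 0.00638) is among them. Those p-values match a test with an assumed spread between replicates, not a measured one.

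The members as a group stood at nearly equal levels in the 2 libraries. Their median log2 ratio, Exon2KO over WT on TMM-scaled counts with a prior count of 2, was -0.04, beside 0.0035 over the 17363 genes that reached 10 reads. Called here means at least 1.5-fold apart with a counting interval that excludes equality. By that rule 2 of 49 members were higher in Exon2KO (background 12.1%) and 1 was lower (background 11.6%). The 2 higher ones were Psmc3ip and the thymus-restricted Psmb11, both with few reads, and the lower one was the immunoproteasome subunit Psmb10.

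Most members are highly expressed, so they were also read against the 6771 genes that reached 500 reads in the summed libraries. Of the 47 members at that depth, 0 were called higher (background 4.58%) and 1 lower (background 8.03%). Their interquartile range of log2 ratios was -0.16 to 0.10, beside -0.24 to 0.16 for all genes of that depth. The counting interval lay wholly above 0 for 12 of the 47 (25.5%, background 26.7%) and wholly below for 19 (40.4%, background 36.4%), shares near the background. Signs this close to 0 depend on scaling: with unscaled library totals the median of all genes moved by 0.105 and 11 of 49 members changed sign, none of them an immunoproteasome or PA28 alpha or beta gene.

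**Figure D1:**
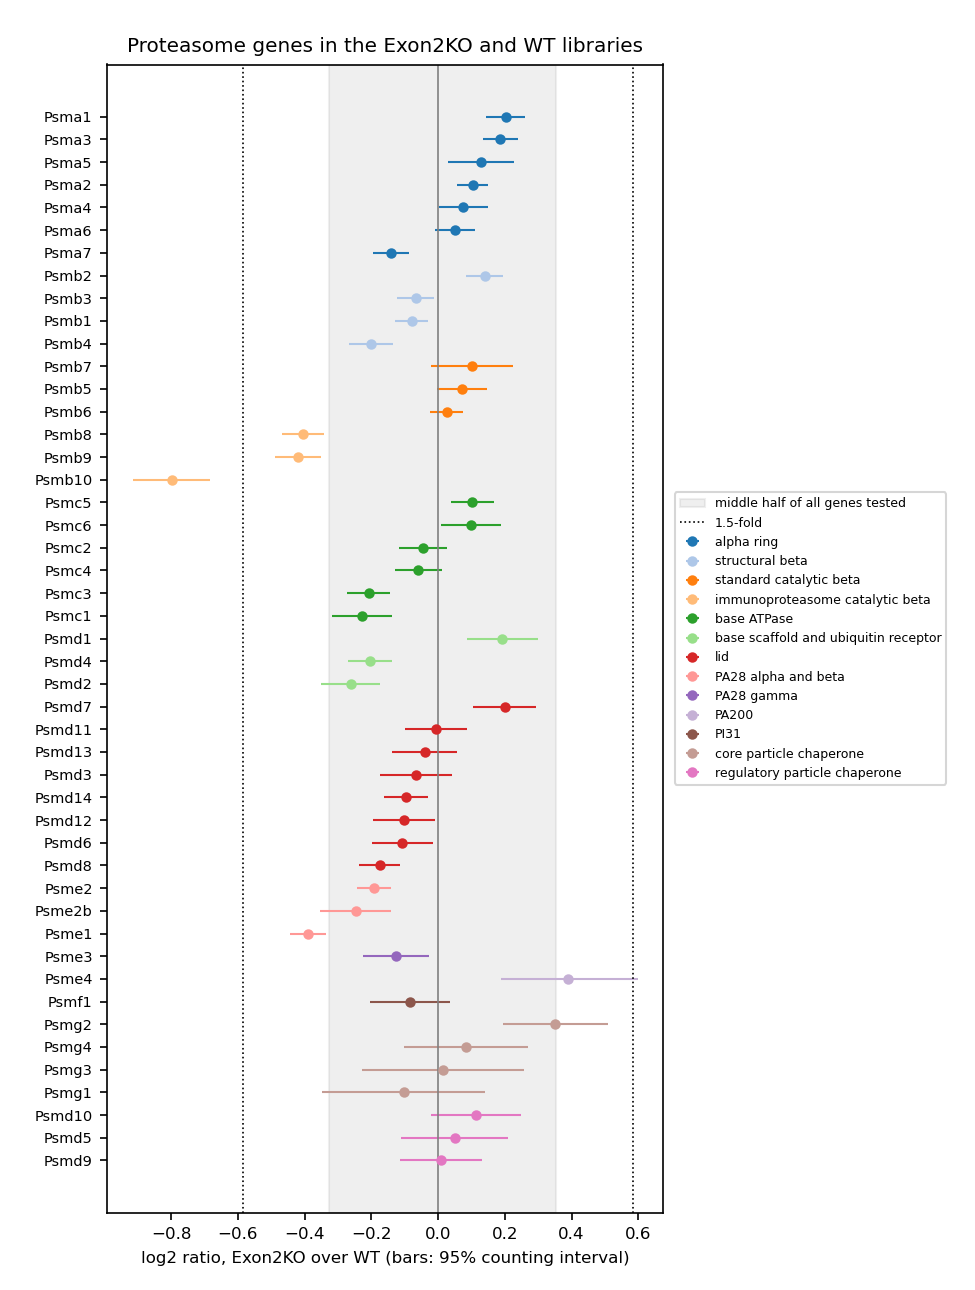
Log2 ratio of Exon2KO over WT (horizontal axis) for 47 proteasome genes, coloured by role, with 95% counting intervals; the grey band is the interquartile range of all 17363 genes tested and the dotted lines mark 1.5-fold. Psmb10, at -0.80, is the one gene beyond a dotted line, and Psmb8, Psmb9 and Psme1 lie just outside the band on the same side, with Psme4 just outside it on the other.

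Of the 3 immunoproteasome subunits, 1 was called lower in the Exon2KO library (Psmb10; background 8.03% of genes that reached 500 reads), and all 3 had an interval below 0, as did 36.4% of those genes. None of the standard catalytic subunits they replace was called. Psmb10 (ENSMUSG00000031897, chromosome 8, 105935735 to 105938444, minus strand, GRCm38), the inducible trypsin-like subunit, had 1637 reads in WT and 958 in Exon2KO. Its log2 ratio was -0.80 (-0.92 to -0.68), so its level was 1.74-fold lower in Exon2KO. The authors' deposited table gives it an adjusted p-value of 0.411.

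Psmb9 (ENSMUSG00000096727, chromosome 17, 34181988 to 34187764, minus strand), which takes the place of the caspase-like Psmb6, had 3960 and 3015 reads, a log2 ratio of -0.42 (-0.49 to -0.35). For Psmb8 (ENSMUSG00000024338, chromosome 17, 34197721 to 34201454, plus strand), the inducible chymotrypsin-like subunit, the counts were 4719 and 3630 and the log2 ratio -0.41 (-0.47 to -0.34). Neither reached 1.5-fold. In the authors' deposited table their adjusted p-values are 0.876 and 0.886.

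All 3 standard catalytic subunits had intervals that included equality under TMM, as did 2502 of the 6771 genes that reached 500 reads. Psmb6 (ENSMUSG00000018286, chromosome 11, 70525367 to 70527858, plus strand) had 6523 reads in WT and 6764 in Exon2KO, at 0.03 (-0.02 to 0.07). Psmb5 (ENSMUSG00000022193, chromosome 14, 54614119 to 54618022, minus strand) had 2788 and 2986, at 0.07 (-0.0027 to 0.15). Psmb7 (ENSMUSG00000026750, chromosome 2, 38588036 to 38644087, minus strand) had 1040 and 1137, at 0.10 (-0.02 to 0.22). With unscaled library totals the ratios of Psmb6, Psmb5 and Psmb7 were 0.13, 0.18 and 0.21, so their closeness to equality rests on the scaling.

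A ratio between genes of the same library does not depend on how libraries are scaled. On levels per length (scaled reads per kilobase of the deposited gene length and per 1e+06 reads), Psmb8, Psmb9 and Psmb10 made up 35.3% (34.7 to 36.01) of the summed catalytic level in WT and 27.2% (26.6 to 27.8) in Exon2KO. The ratio of inducible to standard level was 1.46-fold lower in Exon2KO, a log2 difference of -0.55 (-0.61 to -0.49). Within the pairs, the difference of log2 ratios was -0.90 (-1.07 to -0.73) for Psmb10 over Psmb7, -0.48 (-0.57 to -0.38) for Psmb8 over Psmb5 and -0.45 (-0.53 to -0.36) for Psmb9 over Psmb6. Each of the 3 pairs stood further toward the standard subunit in Exon2KO, and the intervals of the trypsin-like pair did not overlap those of the other pairs.

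**Figure D2:**
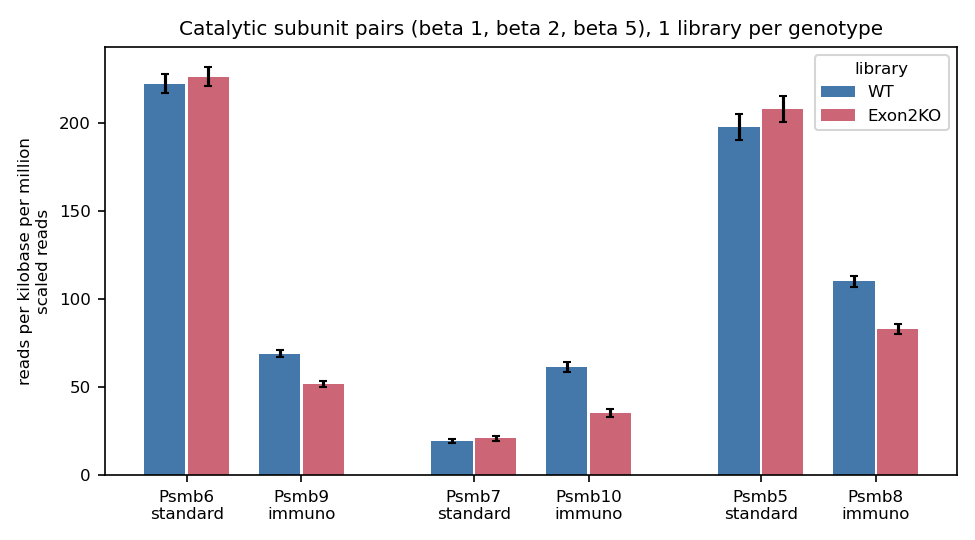
Level (vertical axis, scaled reads per kilobase of gene length and per 1e+06 reads) of the 6 catalytic subunits, in standard and inducible pairs, in the WT and Exon2KO libraries; error bars are 95% Poisson counting intervals of 1 library each. The inducible genes are lower in Exon2KO in each pair, for example 61.2 against 35.1 for Psmb10, while the standard genes sit side by side, such as 222 and 226 for Psmb6.

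Levels and shares depend on which length is used, whereas within a pair the length cancels from the log2 difference between libraries. The deposited lengths of Psmb9 (3659 bases) and Psmb8 (2736 bases) are far longer than their coding sequences (657 and 828 bases). Per deposited length, Psmb8 stood at 0.556 of the Psmb5 level in WT. Per coding length it was above it, at 1.62 in WT and 1.163 in Exon2KO. Psmb10 was likewise 1.597 times the Psmb7 level in WT and 0.855 in Exon2KO per coding length, against 3.16 and 1.69 per deposited length. With coding length, chosen as an alternative after the data were seen, the inducible share of the catalytic level was 49.7% in WT and 41.0% in Exon2KO, a difference of -8.70 points against -8.17 per deposited length.

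Psmb9 and Psmb8 lie with the peptide transporter genes Tap1 and Tap2 in 1 stretch of 34334 bases in the MHC region, in the order Psmb9, Tap1, Psmb8, Tap2. Tap1 and Tap2, whose products form the pump that carries proteasome peptides into the endoplasmic reticulum, had 5841 and 4521 reads and 1914 and 1481 reads in WT and Exon2KO. Both had a log2 ratio of -0.40 (-0.45 to -0.34 for Tap1, -0.50 to -0.30 for Tap2). The 4 neighbours thus had nearly the same ratio: Psmb9 differed from Tap1 by -0.02 (-0.11 to 0.06) and Psmb8 from Tap2 by -0.01 (-0.12 to 0.11) on the log2 scale. Outside this stretch, H2-Ob, past Tap2, had 384 and 198 reads, at -0.98 (-1.24 to -0.73). H2-DMb1, on the Psmb9 side, had 98 and 95, at -0.07 (-0.49 to 0.35). Psmb10, on another chromosome, was lower than Psmb8 by a further -0.39 (-0.53 to -0.26). Psmb9 and Tap1 overlap by 212 bases at their divergent starts, and the use of strand in counting is not given in the sources used here, so reads in that overlap cannot be assigned with certainty.

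The alpha ring, which forms the gated outer rings of the core and does not cut peptides, leaned slightly higher in Exon2KO. Its 7 subunits had a median log2 ratio of 0.10, from -0.14 for Psma7 (5695 and 5261 reads) to 0.20 for Psma1 (4368 and 5119 reads). The most abundant by reads was Psma2, with 7238 reads in WT and 7920 in Exon2KO, at 0.10 (0.06 to 0.15). In all, 6 of 7 had a ratio above 0 under TMM and 5 had an interval wholly above it (background 26.7% of genes that reached 500 reads).

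Among the 4 structural beta subunits, the median was -0.07. Psmb2 had 5067 reads in WT and 5686 in Exon2KO, at 0.14 (0.08 to 0.19). Per deposited gene length it had the highest level of all members in both libraries (268 and 295), a rank that depends on the length used. Psmb4 had 3963 and 3512 reads, at -0.20 (-0.27 to -0.14). Psmb1 and Psmb3 were between these, at -0.08 and -0.07, and their signs reverse with unscaled totals. Taking the alpha ring, structural beta and standard catalytic genes as the 14 standard core subunits, their ratios ran from -0.20 (Psmb4) to 0.20 (Psma1), with 0 called (background 4.58% higher and 8.03% lower). The highest upper limit among the counting intervals of Psmb8, Psmb9 and Psmb10 was -0.34. The lowest limit among the 14 was -0.27, for Psmb4. Of genes that reached 500 reads, 36.4% had an interval wholly below 0, and the share wholly below -0.27 was not counted.

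In the regulatory particle, 17 subunits had a median log2 ratio of -0.07 and 0 calls (background 4.58% higher and 8.03% lower). The base holds the ring of ATPases that unfold substrates. Psmc1, one of them, was lowest, its reads being 2140 and 1860 (-0.23, -0.32 to -0.14), and Psmc5 stood highest, with 3692 and 4038 (0.10, 0.04 to 0.17). Of the scaffold and receptor subunits, Psmd2 had 2277 and 1934 reads (-0.26, -0.35 to -0.17). Psmd1, the other large scaffold, had 1345 and 1566 (0.19, 0.09 to 0.30), so the 2 scaffolds leaned in opposite directions. The ubiquitin receptor Psmd4 had 4104 and 3628 reads, at -0.20 (-0.27 to -0.14).

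The lid, which surrounds the deubiquitinase Psmd14, varied little. Psmd14 had 3818 reads in WT and 3638 in Exon2KO, at -0.10 (-0.16 to -0.03), a sign that unscaled totals reverse. The lid range was from -0.18 for Psmd8 (4419 and 3985 reads) to 0.20 for Psmd7 (1722 and 2014 reads). Lid reads over base reads were 0.724 in WT and 0.730 in Exon2KO, a log2 difference of 0.01 (-0.03 to 0.05).

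**Figure D3:**
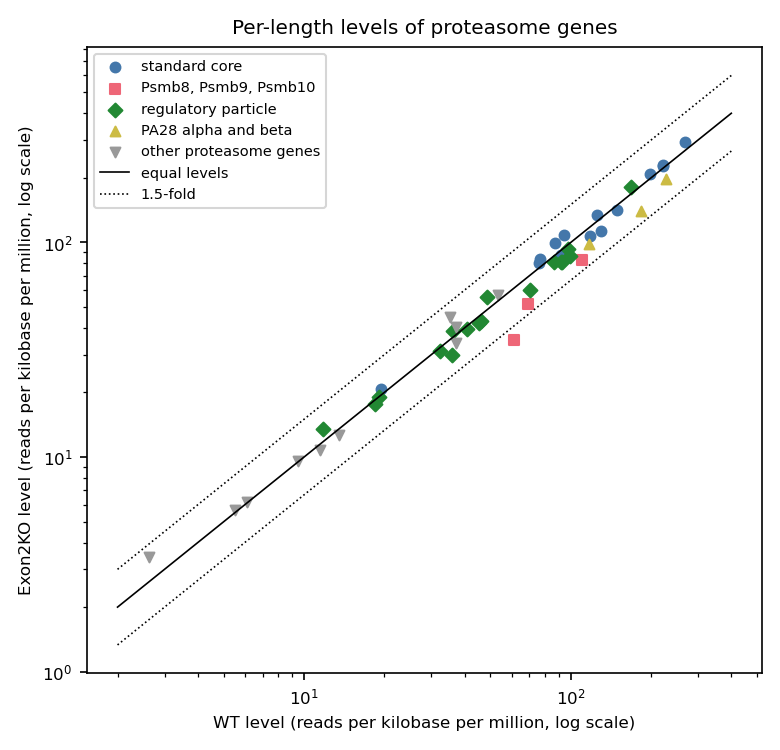
Level per length in the WT library (horizontal axis) and the Exon2KO library (vertical axis), both in scaled reads per kilobase and per 1e+06 reads on log scales, for 47 proteasome genes; the solid line marks equal levels and the dotted lines 1.5-fold. Levels range from 2.61 (Psme4) to 268 (Psmb2) in WT, and the red squares for Psmb8, Psmb9 and Psmb10 all lie under the solid line, Psmb10 beyond 1.5-fold.

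Core and regulatory particle reads kept nearly the same proportion. The 17 core subunits, the inducible ones included, summed to 73099 reads for WT and 73176 for Exon2KO, and the 17 regulatory subunits to 45099 and 43591. Core over regulatory reads was 1.62 in WT and 1.68 in Exon2KO, a log2 difference of 0.05 (0.03 to 0.07). Without Psmb8, Psmb9 and Psmb10 the difference was 0.11 (0.09 to 0.14), or 1.39 against 1.504. Inside the core, the reads of the 3 inducible genes over those of the other 14 gave a larger log2 difference, -0.50 (-0.55 to -0.46).

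The alternative caps differed from one another. Psme1 (ENSMUSG00000022216, chromosome 14, 55578123 to 55581529, plus strand), which encodes PA28 alpha, had 6344 reads in WT and 4935 in Exon2KO, at -0.39 (-0.44 to -0.34). Psme2 (ENSMUSG00000079197, chromosome 14, 55587441 to 55591113, minus strand), which encodes its partner PA28 beta, had 6284 and 5602, at -0.19 (-0.24 to -0.14). In the authors' deposited table the adjusted p-values of Psme1 and Psme2 are 0.911 and 1. The products of the pair share 1 ring, yet the ratio of Psme1 to Psme2 differed between libraries by -0.20 (-0.27 to -0.12). Psme1 stood with Psmb8, the log2 difference of Psmb8 over Psme1 being -0.02 (-0.10 to 0.07). Psme2b, an intronless copy of Psme2, had 1538 and 1320 reads. Its coding sequence is 99.3% identical to that of Psme2, so the division of reads between the 2 is uncertain.

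The nuclear PA28 gamma gene Psme3 had 1725 reads in WT and 1609 in Exon2KO, at -0.13 (-0.23 to -0.03). Relative to Psme1 it was higher in Exon2KO by 0.26 (0.15 to 0.37). Psme4, which encodes the PA200 cap, was on the other side of equality from PA28 alpha and beta, with 344 and 460 reads (0.39, 0.19 to 0.60), and was the lowest of the caps per length. Psmf1, which encodes the inhibitor PI31, had 1156 and 1111 reads, at -0.08 (-0.20 to 0.04).

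Assembly factors were near equality, with 1 exception. Of the 4 core chaperones, Psmg2 stood apart, with 587 reads in WT and 763 in Exon2KO (0.35, 0.19 to 0.51); its partner Psmg1 had 286 and 271 (-0.10, -0.35 to 0.14). Psmg3 and Psmg4, which form the other chaperone pair, were at 0.01 (-0.23 to 0.26) and 0.08 (-0.10 to 0.27). The regulatory particle chaperones Psmd5, Psmd9 and Psmd10 were at 0.05, 0.01 and 0.11, and all 3 intervals included 0. The intervals of 6 of these 7 genes included 0, as did those of 2502 of the 6771 genes that reached 500 reads. Low read numbers, such as those of Psmg1, widen these intervals.

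The remaining members had few reads. Psmb11, the catalytic subunit of the thymus cortex, was counted 2 times in WT and 25 times in Exon2KO (95% counting interval of the log2 ratio 1.61 to 6.74). Psma8, which is restricted to the testis, had 2 and 0 reads, both under the floor of 3, and 0 reads allows up to 1.95e-05% of the Exon2KO library. Psmc3ip, the member that is no proteasome gene, had 60 and 126 reads (1.02, 0.59 to 1.51) and overlaps the gene Mlx, so its reads are uncertain. Of 4 proteasome pseudogene rows, 3 had 0 reads in both libraries and Psmb6-ps2 had 1 read in WT.

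Of 11 proteasome partner genes with other names (the assembly factor Pomp, the receptor Adrm1, the lid subunit Sem1 and others), 0 were called and the median was 0.04. All 11 reached 500 reads, where the background was 4.58% higher and 8.03% lower. Pomp, which is needed for core assembly, had 2532 reads in WT and 3033 in Exon2KO, at 0.23 (0.16 to 0.31). For Sem1 the ratio was 0.16 and for Adrm1 -0.20. Nfe2l1, which encodes the factor that restores proteasome gene transcription when the protease is blocked, had 434 and 426 reads (-0.05, -0.25 to 0.14). Among the 7 regulators, 1 was called higher (background 12.1%), Nfe2l3, on 7 and 19 reads. Of 13 ubiquitin and shuttle genes, 1 was called lower (background 11.6%): Sqstm1, the autophagy receptor p62, with 29758 and 16618 reads (-0.87, -0.89 to -0.84).

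Genes that supply peptides to MHC class I were split. Of the 12 on the list, 0 were called, 6 had an interval wholly below 0 (background over genes that reached 500 reads, as all 12 did, 36.4%) and 4 wholly above (background 26.7%). Beside Tap1 and Tap2, the lower ones were Tapbp (-0.32), Erap1 (-0.54), H2-K1 (-0.32) and H2-D1 (-0.36), which encode the loading bridge, a peptide trimmer and the class I heavy chains. How reads were split between the heavy chain genes, which resemble each other, is uncertain. The 4 above 0 were Tapbpl at 0.21 (0.14 to 0.28), B2m, the class I light chain, at 0.12 (0.11 to 0.13), Pdia3 at 0.08 and Calr at 0.06. Nlrc5, which encodes a class I transactivator, was at 0.01 (-0.10 to 0.11) with 1586 and 1622 reads.

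Interferon response genes, a list chosen with earlier results of these data known and so no independent evidence, had a median of -0.44. Of its 22 genes, 10 were called lower in Exon2KO (background 11.6%) and 0 higher. Irf1, a factor known to act on the Psmb9 promoter, was at -0.25 (-0.28 to -0.21), and the called genes (Irf7, Irf8, Gbp3, Gbp5, Gbp7, Igtp, Ifit3, Oas1a, Rsad2 and Socs1) ran from Gbp5 at -0.59 to Ifit3 at -1.47. Iigp1 and Isg15 were on the other side, at 0.25 and 0.13, and Cxcl10 was at equality (0.01, -0.04 to 0.05).

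**Figure D4:**
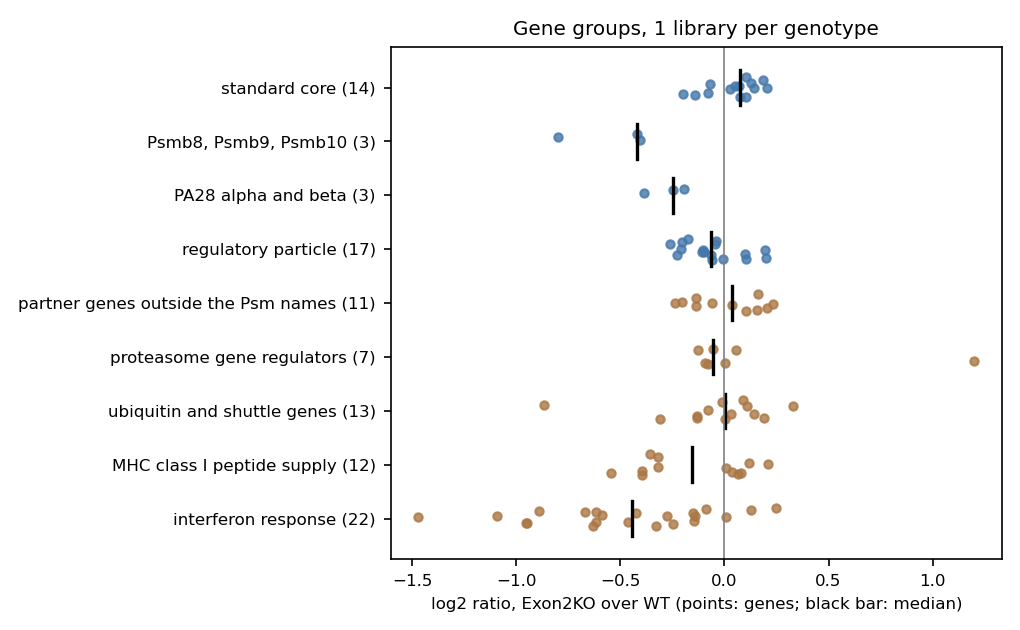
Log2 ratio of Exon2KO over WT (horizontal axis) for 4 groups of proteasome genes (blue) and 5 lists of related genes (brown), with the number of genes in brackets; each point is a gene that reached 10 reads and each black bar the median. The standard core (median 0.07) and regulatory particle (-0.07) straddle 0, whereas the 3 immunoproteasome genes (-0.42), the 3 PA28 alpha and beta genes (-0.25) and the interferon response list (-0.44) lie lower. The PA28 median is the value of Psme2b, the copy of Psme2, and the division of reads between those genes is uncertain.

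In bulk RNA, fewer cells of a type and less RNA per cell cannot be told apart, and other cells of the colon also express proteasome genes. The counts of intervals that follow stand beside 24.6% below 0 and 22.8% above 0 over all genes tested. B and plasma cell genes took up 6.13% of WT and 5.63% of Exon2KO reads, and 11 of 15 tested had an interval below 0 and 3 above. For the T cell identity genes the shares were 0.877% and 0.741% (10 of 14 below 0 and 2 above). Epithelial genes made up 0.00982% of WT and 0.0543% of Exon2KO reads, with 13 of 17 intervals above 0, among them Car1 (24 and 1830 reads, 6.11), Krt8 (160 and 1604 reads, 3.28) and Fabp2 (0 in WT), and 2 below: Epcam (782 and 609 reads, -0.39) and Muc2 (41 and 21 reads, -0.93). Myeloid genes (0.00628% and 0.00762%, 2 of 12 intervals above 0 and 0 below, Itgax at 0 in both, S100a8 and S100a9 at 0 in WT), stromal genes (0.00784% and 0.00814%, 3 of 10 above and 3 below, Cdh5 and Pdgfrb at 0 in WT) and CD8 and cytotoxic genes (0.308% and 0.421%, 3 of 10 above and 5 below, Ncr1 at 0 in WT, Eomes at 0 in Exon2KO) were also present. Most reads of the last list were of Gzmb (43499 and 63649, 0.52), while Gzma (5153 and 164, -4.98), Cd8a (-1.67), Cd8b1 (-0.62) and Prf1 (-1.64) were called lower and Gzmk (2 and 19 reads) and Ncr1 (0 and 10 reads) higher. Of the 16 Treg genes, which made up 2.13% in each, 10 had an interval below 0 and 5 above, from Ikzf2 at -4.29 to Foxp3 at 1.56. Of 16 proliferation genes, 9 had an interval below 0 and 1 above, with Ccnb2 and Birc5 called lower at -0.67 each. The part of these cells or of proliferation in the immunoproteasome and PA28 values was not tested.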

How the data were processed

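RNA sequencing measured 2 libraries, WT and Exon2KO colonic Treg cells. Per the submitters' processing notes, HISAT2 2.0.5, StringTie 1.3.3b, featureCounts 1.5.0-p3, DESeq2 1.16.1 and the build mm10 were used; the role of each, and the use of strand, are not given in the sources used here. The authors' deposited table holds raw counts for each gene and, per the file headers, FPKM values with the log2 fold change of their own comparison and its p-value, raw and adjusted. Recomputing edgeR's exact test at a preset biological coefficient of variation of 0.2 gave the deposited p-value to within 1% for 100% of 22447 genes.

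Counts were scaled with TMM factors (0.964 for WT, 1.04 for Exon2KO; edgeR 4.0.16, R 4.3.3). Ratios (log2, Exon2KO over WT, 2 added as prior count) were formed for genes reaching 10 reads in the summed libraries. Each 95% interval was obtained by the exact Clopper-Pearson method from the split of a gene's reads, with no prior count; those of summed or per-length levels and of differences between ratios come from Poisson variances. A gene was called at 1.5-fold or more with an interval that excluded equality. The procedure was tested on simulated data. Those data held counting error alone, so that test does not cover the spread between mice. Alternatives were other scalings (totals, upper quartile, DESeq2 1.42.0 size factors), prior counts, read minimums, fold thresholds and gene lengths; the minimum of 500 reads and coding length were chosen after seeing the data. Python was 3.11.15, scipy 1.17.1 and pandas 2.3.3.

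The members, lists and alternatives were chosen with earlier results of these data known. Values are given for the catalytic and PA28 genes, the highest and lowest member of each role and every called member. The same rule names, of the other lists, called genes and up to 4 with the most reads; it was not followed in full, since the cell type marker lists are given by counts and a few genes. Further names were picked with their values in view. Of the 50 members, 48 have the same coordinates in GENCODE M21 (GRCm38) as in the deposited table; Psmb9 and Psma8 do not. For 46 the deposited length equals the union of annotated exons. Promoter windows were not used for Psma8, Psmb1, Psmb2, Psmb7, Psmc3, Psmd3, Psmd7 and Psmg2. An item withheld for evaluation is not reported here.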

Additional observations from a re-analysis of the deposited data

How the results depend on the processing

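The number of members called higher was 2, and it became 1 with at least 50 reads, 0 with at least 500 reads (a minimum added after the data were seen) and 4 at a lower fold threshold. The number called lower was 1, and it became 0 at a 2-fold threshold and 4 at the lower one. Scalings by unscaled totals, DESeq2 size factors and upper quartile changed neither count. The median of members moved from -0.04 to 0.0655 with unscaled totals, the shift that scaling gives to all genes; the other scalings, prior counts and read minimums left it between -0.046 and -0.026. The core minus regulatory difference of 0.05 was 0.12 from medians of subunit ratios, where the cause was not tested, and 0.11 without Psmb8, Psmb9 and Psmb10, whose reads that sum leaves out. The inducible share differed by -8.17 percentage points, also in the deposited FPKM, by -8.80 without length and by -8.70 with coding length. Of 49 single ratios, 33 left their counting interval with unscaled totals and 0 under the other alternatives, and no called gene changed sign. Depth limits Psmb11 and Psma8. No paired analysis was possible because each genotype has 1 library, and no library could be left out.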
